A study of Mus musculus with 4 samples.

Results

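The genes described here encode the nuclear pore complex and the receptors that carry cargo through it, together with the small GTPase Ran and its binding partners. They were taken by symbol: every probe set annotated with 1 gene symbol of the form Nup, Ipo, Xpo, Tnpo or Ranbp followed by a digit, Kpna or Kpnb followed by a digit, or the symbols Ran, Xpot and Cse1l. This gave 45 genes read by 89 probe sets, out of 12393 genes and 20380 probe sets with 1 symbol on the array. Of the 45, 44 were bright enough to be tested. Expression was profiled in total RNA of whole embryonic mouse lung with 4 Affymetrix arrays, 2 from lungs carrying the Sftpc-Nmyc transgene and 2 from wild-type lungs. The transgene fuses mouse Nmyc1 cDNA, now named Mycn, to a fluorescent protein under a promoter and enhancer fragment of the human SFTPC gene, used to drive expression in lung epithelium and not in the vessels or connective tissue around it. Transgenic embryos developed directly from injected eggs, of a cross background of C57BL/6J with DBA/2J; the strain of the wild-type embryos is not stated. Sample titles give embryonic day 18 for both groups, and the design text puts the transgenic embryos slightly later within that day. Duplicates are stated to be biological replicates, and nothing in the labels says how many embryos went into each.

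The nuclear pore is a ring-shaped channel through the nuclear envelope, built from nucleoporins in stacked outer and inner rings around a central channel lined with flexible phenylalanine-glycine (FG) repeats. Importins bring proteins with a nuclear localisation signal into the nucleus and exportins carry cargo out, and Ran bound to GTP inside the nucleus releases imported cargo and loads exported cargo. Ribosomal proteins enter the nucleus and finished ribosomal subunits leave it through this channel.

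MYC family proteins bind the E-box, whose letters are CACGTG and read the same on both strands. Promoter windows of 300 bases, from 250 before to 50 after a RefSeq transcription start (build GRCm38.p6), were found for 35 of the 45 genes. The windows below are shown because Ran, Ipo4 and Nup188 are the genes that rose and hold the motif, Ranbp1 rose without it, and Nup54 holds it although its brightest probe set did not pass the test. Capitals mark the E-box. The sequences run 5′ to 3′ on the strand of the gene.
Ran (chr5:129019906-129020205, + strand): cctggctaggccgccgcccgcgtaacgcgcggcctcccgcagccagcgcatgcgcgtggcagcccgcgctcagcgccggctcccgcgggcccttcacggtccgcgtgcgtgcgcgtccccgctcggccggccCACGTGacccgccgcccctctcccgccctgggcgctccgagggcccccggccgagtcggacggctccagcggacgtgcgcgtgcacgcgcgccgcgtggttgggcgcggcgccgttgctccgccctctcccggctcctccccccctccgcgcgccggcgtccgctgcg
Ipo4 (chr14:55635635-55635934, - strand): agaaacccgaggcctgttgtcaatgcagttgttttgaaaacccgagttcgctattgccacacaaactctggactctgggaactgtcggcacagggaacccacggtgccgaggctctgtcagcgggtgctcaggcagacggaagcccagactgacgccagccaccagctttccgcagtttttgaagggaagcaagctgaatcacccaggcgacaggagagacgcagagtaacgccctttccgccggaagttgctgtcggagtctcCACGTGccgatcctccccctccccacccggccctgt
Nup188 (chr2:30286166-30286465, + strand): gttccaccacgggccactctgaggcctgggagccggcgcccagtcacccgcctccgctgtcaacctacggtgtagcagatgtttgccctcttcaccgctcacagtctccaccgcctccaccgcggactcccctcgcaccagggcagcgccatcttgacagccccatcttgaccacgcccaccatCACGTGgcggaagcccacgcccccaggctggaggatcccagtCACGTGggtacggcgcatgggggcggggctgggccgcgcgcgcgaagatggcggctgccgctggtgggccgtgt
Ranbp1 (chr16:18248645-18248944, - strand): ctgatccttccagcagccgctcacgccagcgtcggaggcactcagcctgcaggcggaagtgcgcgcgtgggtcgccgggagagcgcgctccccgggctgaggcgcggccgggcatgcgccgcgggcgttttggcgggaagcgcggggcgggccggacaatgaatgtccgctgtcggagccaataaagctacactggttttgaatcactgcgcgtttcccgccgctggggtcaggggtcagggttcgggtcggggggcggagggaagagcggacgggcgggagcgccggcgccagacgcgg
Nup54 (chr5:92435150-92435449, - strand): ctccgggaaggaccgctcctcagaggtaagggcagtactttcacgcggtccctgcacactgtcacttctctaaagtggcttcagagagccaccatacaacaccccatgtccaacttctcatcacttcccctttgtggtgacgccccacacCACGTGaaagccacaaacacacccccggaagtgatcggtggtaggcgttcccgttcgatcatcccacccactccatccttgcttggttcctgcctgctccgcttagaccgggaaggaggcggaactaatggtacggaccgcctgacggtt

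The motif began at -118 from the start site in Ran, at 14 bases past it in Ipo4, and at -66 and -24 in Nup188. In Nup54 it began at -100. Among genes with a window, 3 of 14 members that rose held the E-box (21.4%), as did 6 of 20 that did not pass the test. The 6 were Nup54, Nup93, Ranbp2, Ipo7, Tnpo2 and Xpot. Over all genes tested the share was 12.1%, and it was 16% of genes called higher, 8.65% of genes called lower and 12% of the rest. By window, 9 of 42 member windows (21.4%) and 7.15% of all 32851 windows held it. Over all 35 members with a window, 9 held it (25.7%). The shares in members that rose and in those that did not pass rest on few genes, and their difference was not tested. Ranbp1, Ipo5 and Nup107, with rises among the largest of the members, had no match in these windows. Another 10 members had no window, among them Cse1l, Nup43, Nup85 and Ranbp3, which rose. Whether MYC family proteins bind any of these promoters was not tested.

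The misexpressed gene was checked first. The brightest probe set of Mycn read 455 and 356 in Sftpc-Nmyc lungs, against 34.7 and 32.1 in wild type, a log2 difference of 3.46 ± 0.19 (SE; limma adjusted p = 7.3e-05). Of the other Mycn sets, 1 was lower in transgenic lungs, at 25.1 and 27.2 in Sftpc-Nmyc lungs and 78.7 and 63.5 in wild type, and 1 read 61.8 and 43.8 against 57.3 and 18.8. The groups thus separated on the brightest probe set as the labels say, while the 3 probe sets disagreed in direction. Array medians lay between 65.5 and 70.8, and the highest of 27 Bacillus control probe sets read 73.4, which serves as a rough guide to background. Replicates correlated at r = 0.968 (Sftpc-Nmyc) and 0.965 (wild type), and arrays of different groups at 0.922 to 0.933. Lung identity was present on every array, since 9 alveolar type II markers summed to 9937 and 7868 in Sftpc-Nmyc lungs and to 36700 and 42240 in wild type. Sftpc was the largest part of the transgenic sums, with deposited signals of 5788 and 4817 in Sftpc-Nmyc lungs and 9566 and 9546 in wild type.

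Of the 44 nuclear pore and transport genes tested, 18 rose in Sftpc-Nmyc lungs, none was called lower and 26 did not pass at a limma adjusted p under 0.05, where 14.7% of all 8675 genes tested were called higher, 15.7% lower and 30.4% either way. The median log2 difference, Sftpc-Nmyc minus wild type, was 0.42 over the 44 and -0.02 over all genes tested. The difference was above 0 in 42 of the 44, and the exceptions were Ranbp9 and Ranbp10, which bind Ran in name but are better known as scaffold proteins outside transport. A rise of at least 2-fold was called in 9 of them, and in 5.53% of all genes tested. The normalized values of the groups did not overlap in 35 of the 44, of which 34 were higher and 1 was lower; groups did not overlap in 68.1% of all genes tested. The number of arrays limits the precision, with standard errors of 0.12 to 0.26 on the log2 scale. Leaving out 1 array leaves a single array in a group, and not all of the 18 calls were kept in such fits. Without wild-type replicate 2, the difference was above 0 in 40 of the 44, where the median over all genes tested was -0.03.

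**Figure D1:**
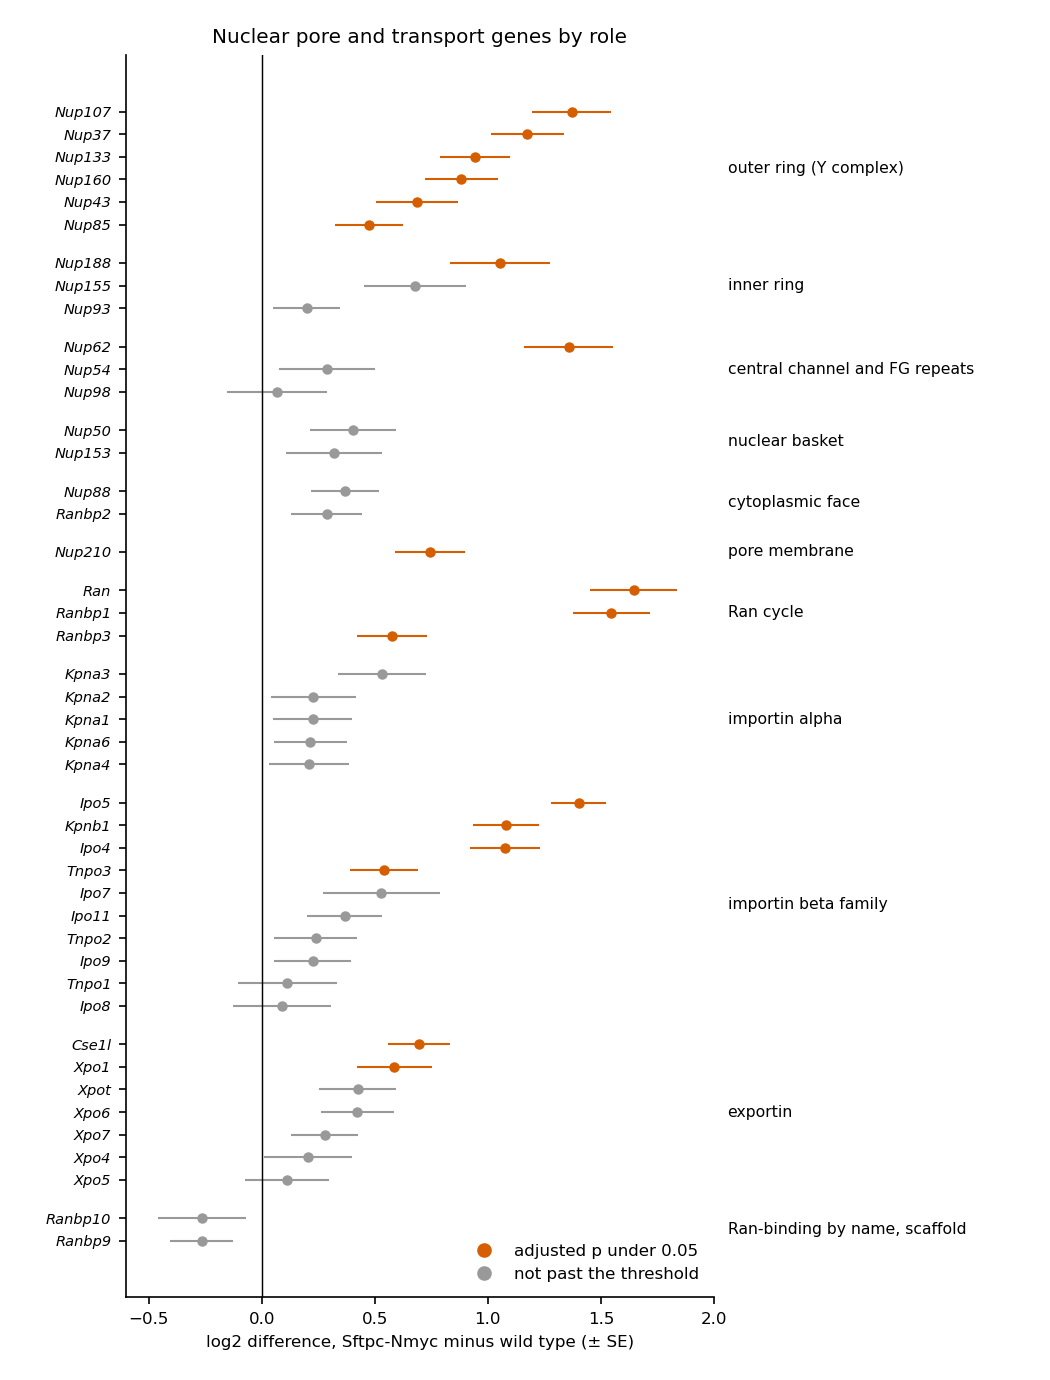
Log2 difference (Sftpc-Nmyc minus wild type, ± SE, n = 2 per group) of the 44 tested genes, ordered by role, with genes at an adjusted p under 0.05 in orange. Among genes of the symbol pattern, all 6 of the outer ring and all 3 of the Ran cycle passed, while none of the 5 importin alpha genes did. Over all genes tested 14.7% were called higher.

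**Figure D2:**
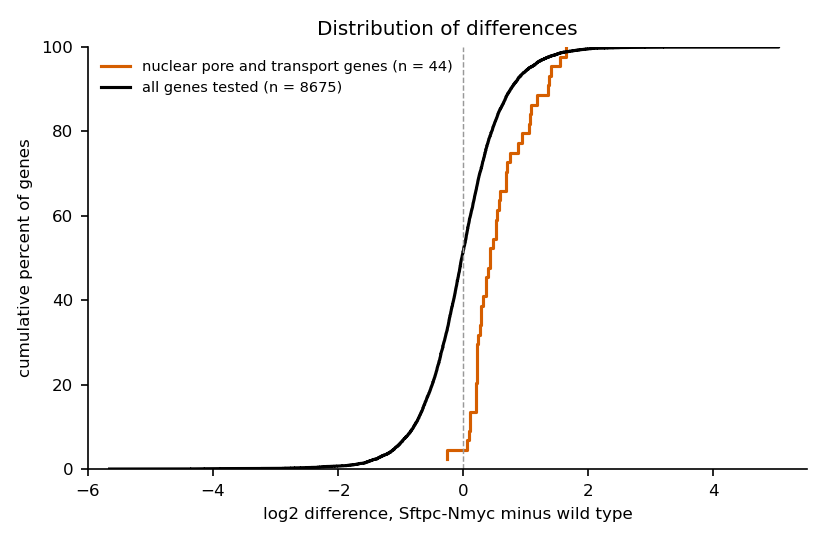
Cumulative percent of genes by log2 difference, Sftpc-Nmyc minus wild type, for the 44 nuclear pore and transport genes and all 8675 genes tested. The member curve lies to the right, with a median of 0.42 against -0.02.

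Other groups of genes moved with genotype in the same RNA. Of 12 S phase genes tested, all were higher, with a median of 1.76. Summed over the 13 measured, their normalized signal was 7780 and 8797 in Sftpc-Nmyc lungs, against 3102 and 2203 in wild type. Among pan-epithelial markers 6 of 10 were higher and none lower (sums of 8295 and 8493 against 5496 and 5974). All 9 endothelial markers were lower (2675 and 2591 against 6932 and 7726), as were 7 of 8 fibroblast markers (10500 and 11000 against 20020 and 20700), all 9 of alveolar type II and all 6 of alveolar type I (7263 and 5404 against 13960 and 13150). Leukocyte markers were lower in 2 of 5 tested (sums over 6 measured of 1014 and 1046 against 4305 and 5731). Most of the leukocyte sum was Lyz2, which alveolar type II cells also express, at 528 and 531 against 3047 and 4360. The other leukocyte marker called lower was Csf1r, at 258 and 277 in Sftpc-Nmyc lungs against 688 and 650 in wild type (-1.32 ± 0.14; limma adjusted p = 0.000734). Ptprc, Cd68 and Cd14 were not called. Erythroid markers were lower in 2 of 2 (sums over 3 measured of 425 and 430 against 2372 and 2173), and cardiac muscle markers in 5 of 5 (sums over 6 measured of 306 and 551 against 2767 and 1695). Xist read 59.3 and 63.9 in Sftpc-Nmyc lungs and 1708 and 1506 in wild type, so sex and genotype cannot be told apart. The part of these shifts in the results for transport genes was not tested, and in whole lung more cells of a type and more RNA per cell cannot be told apart.

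On the brightest probe sets, Ran and Ranbp1 had the largest differences of the 44. Ran, the GTPase whose nucleotide state gives transport its direction, read 2922 and 3966 in Sftpc-Nmyc lungs, against 1201 and 862 in wild type. Both transgenic arrays lay above both wild-type arrays, and the log2 difference was 1.64 ± 0.19 (3.13-fold; limma adjusted p = 0.00102). Ranbp1, which helps RanGAP turn Ran over to its GDP form in the cytoplasm, read 1558 and 1843 in Sftpc-Nmyc lungs, against 649 and 488 in wild type. That was a log2 difference of 1.55 ± 0.17 (2.92-fold; limma adjusted p = 0.000879), again with no overlap. Ranbp3, a cofactor of the exportin Xpo1, read 308 and 353 against 230 and 210, a smaller rise of 0.58 ± 0.15 (limma adjusted p = 0.0258). The Ranbp3 call was kept without transgenic replicate 1 (0.0444) but not without transgenic replicate 2 (0.139), wild-type replicate 1 (0.0751) or wild-type replicate 2 (0.124).

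The size of the Ran rise depended on the probe set. Of its 6 probe sets, 5 passed in a fit over all probe sets, at log2 differences between 0.38 and 1.64, and the sixth, also dim, read 35.9 and 34.4 in Sftpc-Nmyc lungs and 28.5 and 56.0 in wild type. The 5 that passed include 4 whose names end in _x_at, a suffix for probe sets that hold probes shared with other transcripts. The single Ran probe set without that suffix read 310 and 299 in Sftpc-Nmyc lungs, against 146 and 147 in wild type, a log2 difference of 1.03. With the mean of all 6, Ran stood at 0.96 (limma adjusted p = 0.00199). The direction thus held on 5 probe sets, and the lower values of 1.03 and 0.96 are over 1.5 times smaller than 1.64.

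**Figure D3:**
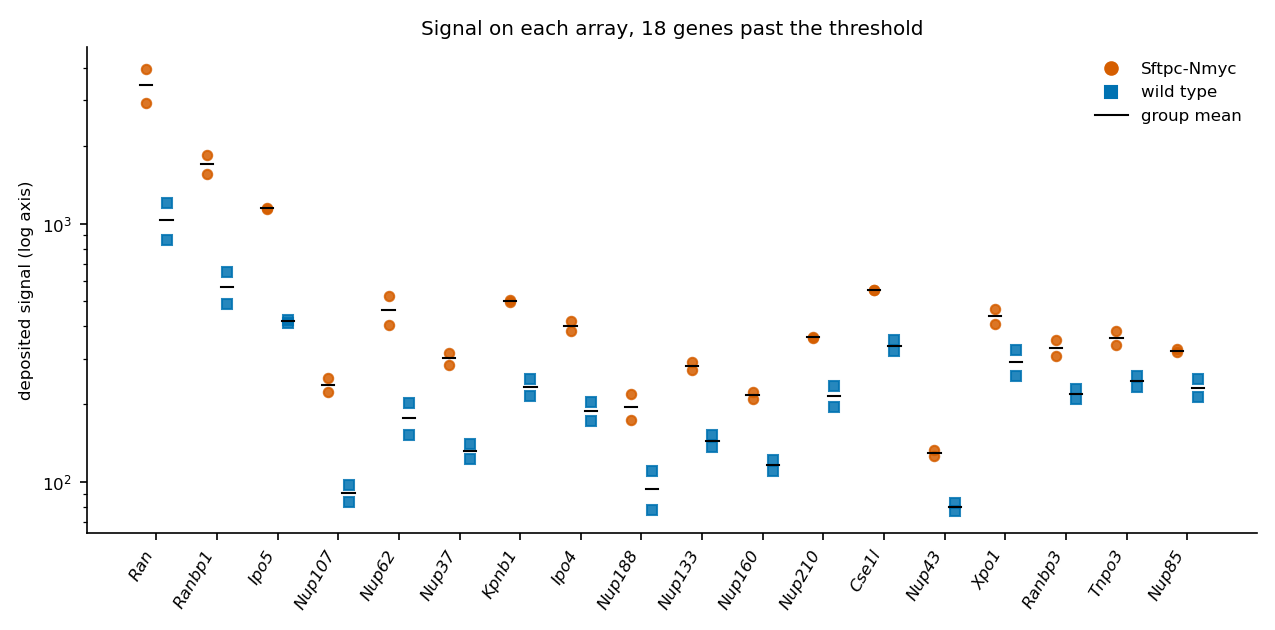
Deposited signal on each array (log axis) for the 18 genes past the threshold, ordered by log2 difference, with Sftpc-Nmyc arrays left of wild-type arrays and group means as bars. In every gene both transgenic arrays lie above both wild-type arrays, from Ran at 2922 and 3966 against 1201 and 862 to Nup85 at 319 and 326 against 250 and 213. The genes were picked by a test on these same arrays, so this separation is no further result. Normalized values of the groups did not overlap in 68.1% of all genes tested.

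Among the nucleoporins, counted with Ranbp2, 9 of 17 rose and 8 did not pass, with a median of 0.68; that share of 52.9% stands beside 14.7% of all genes. In the outer ring, built of the Y-shaped complex that coats the pore and also sits at kinetochores in mitosis, all 6 genes with a Nup symbol rose, at a median of 0.91, where 14.7% of all genes were called higher. Seh1l and Sec13, subunits of the same complex whose symbols lie outside the pattern, did not pass. Nup107, a central member of this complex, read 223 and 253 in Sftpc-Nmyc lungs, against 83.3 and 97.4 in wild type, a log2 difference of 1.37 ± 0.18 (limma adjusted p = 0.00149). Nup37, a peripheral beta-propeller subunit, read 285 and 317 against 140 and 122, a difference of 1.18 ± 0.16 (limma adjusted p = 0.0019). These were 2.59-fold and 2.26-fold rises, and the groups did not overlap. Nup133, which anchors to Nup107, read 271 and 291 in Sftpc-Nmyc lungs and 152 and 137 in wild type (0.94 ± 0.16; limma adjusted p = 0.00372). In the fit over all probe sets, another Nup133 set passed at 0.87 (limma adjusted p = 0.017) and a further one, at 0.50, did not (0.126). Nup160, a large scaffold subunit, read 210 and 222 against 111 and 121 (0.88 ± 0.16; limma adjusted p = 0.00564). The remaining outer ring genes rose less. Nup43 read 133 and 126 in Sftpc-Nmyc lungs and 77.1 and 83.0 in wild type (0.69 ± 0.18; limma adjusted p = 0.0244), and Nup85 read 319 and 326 against 250 and 213 (0.47 ± 0.15; limma adjusted p = 0.0485). Neither stayed past the threshold when any 1 of the 4 arrays was left out, with limma adjusted p of 0.0612 to 0.108 for Nup43 and 0.0778 to 0.202 for Nup85. Each had a second probe set that passed at a larger difference in the fit over all probe sets, 1.0 for Nup43 and 1.19 for Nup85. In that fit the brightest set of Nup43 passed as well (limma adjusted p = 0.0291) and that of Nup85 did not (0.0555).

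The inner ring, which links the outer rings to the membrane and the channel, was mixed. Nup188, one of its large scaffold proteins, read 173 and 218 in Sftpc-Nmyc lungs, against 78.0 and 110 in wild type, a rise of 1.06 ± 0.22 (limma adjusted p = 0.00984). That call was lost without transgenic replicate 2 (limma adjusted p = 0.0618) or wild-type replicate 1 (0.0599). Nup155, an inner ring protein that contacts the membrane, read 179 and 121 against 85.3 and 98.0, at 0.68 ± 0.23 without passing (limma adjusted p = 0.055), although its second probe set passed at 0.79. It was called without transgenic replicate 2, at 0.95 (limma adjusted p = 0.0302), and stood at 0.40 without transgenic replicate 1 (0.284). It was not called without wild-type replicate 1 (0.211) or wild-type replicate 2 (0.118). Nup93, which organises the inner ring, read 231 and 238 in Sftpc-Nmyc lungs and 208 and 198 in wild type, a difference of 0.20 ± 0.15 with a 95% interval of -0.14 to 0.54 (limma adjusted p = 0.344). Its arrays were the closest of the ring, and the interval leaves out a rise as large as that estimated for Nup188.

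In the central channel, Nup62, the FG protein that forms the core of the channel, read 404 and 523 in Sftpc-Nmyc lungs, against 202 and 152 in wild type. The groups lay well apart, at a log2 difference of 1.36 ± 0.20 (2.56-fold, limma adjusted p = 0.0023). In the fit over all probe sets, its other tested sets gave smaller differences. These were 0.885 (limma adjusted p = 0.0266) and 0.81, which did not pass (0.0503). With the mean of its probe sets, Nup62 stood at 1.10 (limma adjusted p = 0.00362). Its channel partner Nup54 gave conflicting readings. The brightest probe set read 137 and 132 in Sftpc-Nmyc lungs and 133 and 90.8 in wild type, with overlapping groups and no call (0.29 ± 0.21; limma adjusted p = 0.336). A dimmer _x_at probe set of Nup54 read 88.5 and 129 against 19.1 and 8.5, the largest difference of any member probe set at 2.71 ± 0.36 (limma adjusted p = 0.00235 over all probe sets). Since this set can hold shared probes and its wild-type readings lie below the Bacillus controls, the level of Nup54 is uncertain. Nup98, a mobile FG protein whose transcript also encodes a scaffold nucleoporin, stayed below 73.4 on every array, at 62.2 and 68.1 in Sftpc-Nmyc lungs and 71.6 and 59.1 in wild type. Its difference of 0.07 ± 0.22 did not pass.

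Of the other pore proteins, Nup210, a membrane-spanning protein of the pore wall, read 360 and 364 in Sftpc-Nmyc lungs, against 235 and 196 in wild type (0.74 ± 0.16; limma adjusted p = 0.00971). The call was lost without wild-type replicate 2 (0.0707). The nuclear basket and cytoplasmic face had no gene past the threshold: Nup50, Nup153, Nup88 and Ranbp2 lay between 0.29 and 0.40. Nup88, on the cytoplasmic side, read 493 and 470 in Sftpc-Nmyc lungs and 407 and 336 in wild type (limma adjusted p = 0.104), with no overlap. Nup153, a basket protein, read 238 and 174 against 187 and 140, with overlapping groups (limma adjusted p = 0.288). All 4 differences were positive.

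Among importins and exportins, 6 of 22 tested rose and 16 did not pass, with a median of 0.32; that share of 27.3% stands beside 14.7% of all genes. Ipo5, an importin for ribosomal proteins and histones, had the most even replicates of the rises: 1149 and 1140 in Sftpc-Nmyc lungs, against 414 and 425 in wild type. Its log2 difference was 1.40 ± 0.12 (2.64-fold; limma adjusted p = 0.000415), and a second probe set gave 1.54. The mean of its probe sets, 1 of them dim and reading 4.3 and 16.9 against 20.8 and 11.2, gave 0.84 (limma adjusted p = 0.0128). Kpnb1, importin beta 1, the main carrier of the family, read 507 and 496 in Sftpc-Nmyc lungs, against 251 and 216 in wild type (1.08 ± 0.15; limma adjusted p = 0.00178). In the fit over all probe sets, other Kpnb1 sets passed at 1.32 and 1.07, and an _x_at set at 0.28 did not (limma adjusted p = 0.521). Ipo4, another importin of histones and ribosomal proteins, read 420 and 385 against 203 and 172 (1.08 ± 0.15; limma adjusted p = 0.00223). These rises of 2.11-fold to 2.64-fold did not overlap between groups, and their calls were kept whichever array was left out. Tnpo3, the carrier of splicing factors rich in serine and arginine, read 382 and 340 in Sftpc-Nmyc lungs and 257 and 233 in wild type, a rise of 0.54 ± 0.15 (limma adjusted p = 0.0292). All 3 of its probe sets passed in the fit over probe sets, at 0.54 to 0.78, but the gene was not called when any 1 array was left out (0.062 to 0.137).

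The importin alpha adaptors, which bind the localisation signal and hand the cargo to importin beta 1, did not follow Kpnb1 past the threshold. None of 5 measured passed, at log2 differences of 0.21 to 0.53. Kpna2, the adaptor known for its high level in dividing cells, read 452 and 448 in Sftpc-Nmyc lungs, against 452 and 318 in wild type. The transgenic arrays were level with the higher wild-type array, and the difference of 0.23 ± 0.19 had a 95% interval of -0.20 to 0.66, which ends below the lower bound of 0.74 for Kpnb1. Kpna1 gave an upper bound of 0.63, Kpna4 of 0.62 and Kpna6 of 0.59. Kpna3 was the highest, at 137 and 163 against 116 and 91.2 (0.53 ± 0.19; limma adjusted p = 0.072), with an interval of 0.08 to 0.98 that meets that of Kpnb1. The difference between Kpnb1 and an adaptor was not itself tested. Other probe sets of Kpna1, Kpna3, Kpna4 and Kpna6 lay below 0 without passing, from -0.07 to -0.32. A further set was above 0 without passing for Kpna1 (0.16) and for Kpna3 (0.40), while for Kpna4 and Kpna6 the brightest set was the only one above 0.

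**Figure D4:**
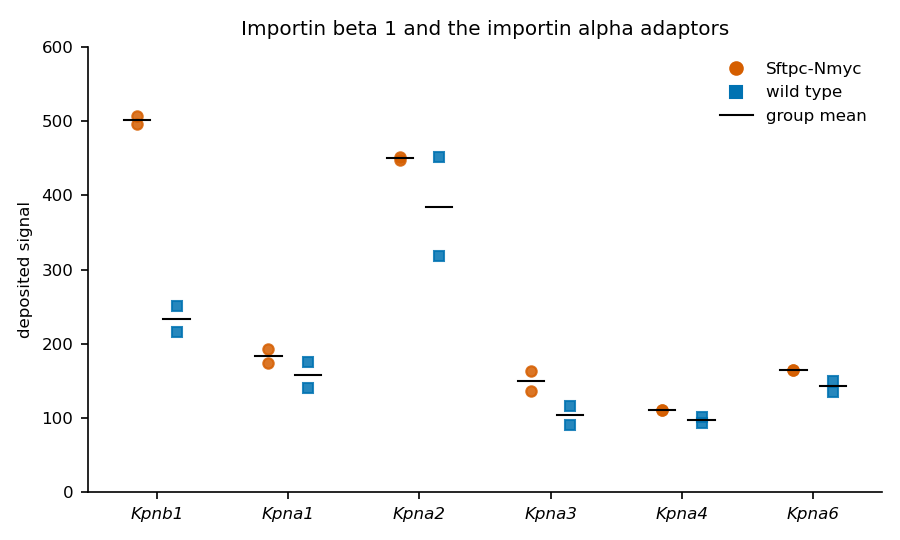
Deposited signal on each array for Kpnb1 and the 5 importin alpha genes, brightest probe set of each, with Sftpc-Nmyc arrays left of wild-type arrays and group means as bars. Kpnb1 separates at 507 and 496 against 251 and 216, whereas Kpna2 reads 452 and 448 against 452 and 318; signals of different genes are not comparable in level.

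The remaining import receptors, Ipo7, Ipo8, Ipo9, Ipo11, Tnpo1 and Tnpo2, lay between 0.09 and 0.53 and none passed. Ipo7, a carrier of ribosomal proteins and of signalling proteins, had the largest standard error of the 44 tested: 553 and 349 in Sftpc-Nmyc lungs, against 370 and 241 in wild type. Replicate 1 was the higher array in both groups, the groups overlapped, and the difference was 0.53 ± 0.26 (limma adjusted p = 0.161). Tnpo1, transportin 1, the carrier of hnRNP proteins, read 169 and 113 against 126 and 131 on its brightest probe set (0.11 ± 0.22; limma adjusted p = 0.733). A dim second set read 27.7 and 31.9 in Sftpc-Nmyc lungs and 61.7 and 52.8 in wild type, and the mean of both turned the direction to -0.32 without passing.

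Exportins rose in 2 of 7 tested, beside 14.7% of all genes called higher. Cse1l, which returns importin alpha to the cytoplasm, read 553 and 556 in Sftpc-Nmyc lungs, against 354 and 320 in wild type, a log2 difference of 0.69 ± 0.14 (1.62-fold; limma adjusted p = 0.00799). The call was lost without wild-type replicate 2 (0.061). Xpo1, the general exportin for proteins with a leucine-rich signal and for ribosomal subunits, read 466 and 409 against 325 and 257 (0.59 ± 0.16; limma adjusted p = 0.0307). It was called without wild-type replicate 1 (0.0438) but not without transgenic replicate 1 (0.129), transgenic replicate 2 (0.0677) or wild-type replicate 2 (0.166), although a second probe set passed at 0.80. The mean over its probe sets, 1 of them reading 2.9 and 1.7 against 3.9 and 5.0, gave 0.37 (limma adjusted p = 0.161). Both exportins had separate groups, and Cse1l was nearly identical between the transgenic arrays.

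Xpot, the exportin for transfer RNA, read 207 and 170 in Sftpc-Nmyc lungs and 140 and 138 in wild type, at 0.42 ± 0.17 without passing (limma adjusted p = 0.096). Xpo5, the exportin for microRNA precursors, read 109 and 135 against 107 and 120, with overlapping groups (0.11 ± 0.19; limma adjusted p = 0.689). Xpo4, Xpo6 and Xpo7 lay between 0.21 and 0.42. For Xpo7 a dimmer probe set passed at 0.51 while the brightest did not (0.28 ± 0.15). Ranbp17, an exportin-related protein, was the gene too dim to test, at 26.5 and 30 in Sftpc-Nmyc lungs and 5.3 and 13.9 in wild type, all below the Bacillus controls. Ranbp9 read 290 and 284 against 344 and 347 (-0.27 ± 0.14; limma adjusted p = 0.186), and Ranbp10 read 140 and 192 against 187 and 212 (-0.26 ± 0.19; limma adjusted p = 0.34). These were the only members below 0 on the probe set that stood for the gene, and neither passed.

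Probe sets of the same gene mostly had the same direction among the genes that rose. Of 82 member probe sets bright enough to test, 35 were called higher and 0 lower in the fit over 14266 probe sets, where 13.5% were called higher and 12.9% lower. In the gene fit with limma, 0 of the 44 were lower even at an unadjusted p under 0.05. Of 25 genes with more than 1 probe set, 10 were among the 18 that rose, and in all 10 a second probe set was also called higher. In 9 of those 10 every tested probe set had the same sign, the exception being the dim Ran set. No gene had probe sets called in opposite directions.

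**Figure D5:**
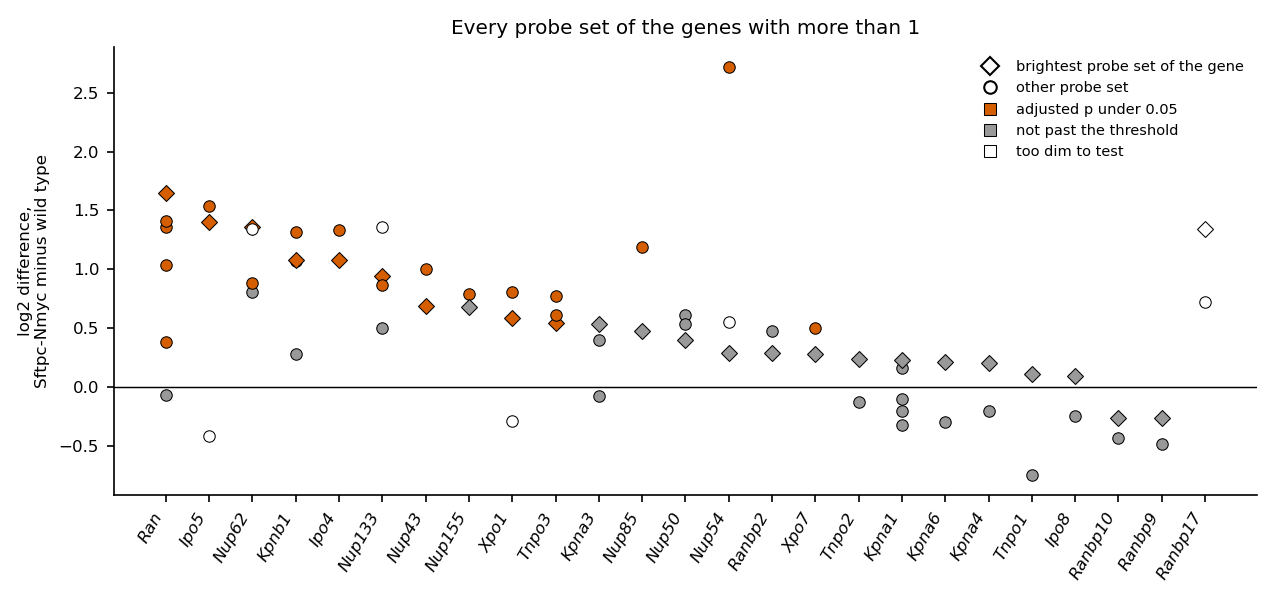
Log2 difference, Sftpc-Nmyc minus wild type, of every probe set of the 25 genes with more than 1, from the fit over all probe sets; diamonds mark the set that stands for the gene, orange the sets at an adjusted p under 0.05, and white the sets too dim to test. Nup54 has the widest disagreement, between 0.29 and 2.71, and the sets of the importin alpha genes fall on both sides of 0.

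Other genes of the same machinery, whose symbols lie outside the pattern, were read from lists drawn up from background knowledge. Earlier results of these data were known when the lists were chosen, so their counts are a description only. Over all genes tested 14.7% were called higher and 15.7% lower. Of 10 further pore proteins 4 rose and none fell, with a median of 0.46. Aaas, the pore protein mutated in triple A syndrome in humans, read 128 and 127 in Sftpc-Nmyc lungs, against 53.1 and 52.5 in wild type (1.24 ± 0.19; limma adjusted p = 0.00298). Both wild-type readings of Aaas lie below the highest Bacillus control (73.4), so the size of its rise is uncertain. Ahctf1, known as ELYS, which seeds pore assembly on chromatin after mitosis, read 173 and 184 against 78.2 and 89.8 (1.07 ± 0.18; limma adjusted p = 0.00376), but its mean over 2 probe sets was 0.59 (limma adjusted p = 0.0276). Nupl1, the third protein of the channel with Nup62 and Nup54, read 207 and 207 against 105 and 132 (0.80 ± 0.18; limma adjusted p = 0.0126), a call lost without transgenic replicate 2 (0.0555) or wild-type replicate 1 (0.0684). In the outer ring, Seh1l and Sec13, which also work outside the pore, did not pass, at 0.04 ± 0.15 and 0.21 ± 0.16.

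Of 3 Ran cycle and import cofactors measured, 2 rose. Rcc1, the chromatin-bound exchange factor that loads Ran with GTP, read 113 and 167 in Sftpc-Nmyc lungs, against 58.7 and 61.8 in wild type (1.17 ± 0.23; limma adjusted p = 0.0075). The Rcc1 call was lost without transgenic replicate 2, and both its wild-type readings lie below the highest Bacillus control (73.4). Rangap1, which acts at the opposite end of the cycle by triggering GTP hydrolysis in the cytoplasm, read 261 and 284 against 265 and 235 (0.12 ± 0.15, limma adjusted p = 0.583), with overlapping groups. The mean of its 2 probe sets gave 0.33, also without passing (limma adjusted p = 0.184). Rangrf, a guanine nucleotide release factor for Ran, read 262 and 303 against 140 and 137 (1.0 ± 0.16; limma adjusted p = 0.00326). In RNA export 9 of 19 rose and none fell, beside the same 14.7% and 15.7% of all genes, with a median of 0.56. Alyref, an adaptor that loads messenger RNA onto its export receptor, read 513 and 598 in Sftpc-Nmyc lungs, against 185 and 194 in wild type (1.52 ± 0.15; limma adjusted p = 0.000652). Ddx39a, an RNA helicase of messenger RNA export, rose by 1.16 ± 0.17 (limma adjusted p = 0.00249), and Ncbp2, a subunit of the nuclear cap-binding complex, by 0.96 ± 0.15 (limma adjusted p = 0.00298). The export receptor Nxf1 itself did not pass, at 0.15 ± 0.24 (limma adjusted p = 0.671).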

How the data were processed

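RNA of whole embryonic lung was hybridised to 4 Affymetrix arrays, 2 Sftpc-Nmyc and 2 wild type; RNA was purified and labelled with RNeasy and Affymetrix kits, per the labels' protocols. The authors deposited 1 linear intensity for each of 22690 probe sets, 64 of them controls. How those intensities were computed and scaled is not given in the sources used, and detection calls and scanner files were not used here. Gene symbols came from the annotation of the platform: 20380 had 1 symbol, 691 several and 1555 none. All 45 member symbols matched a RefSeq gene table (GRCm38.p6) by gene identifier, and 2 probe sets that pair a member symbol with another gene were left out.

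Intensities under 1 were set to 1, 5 was added, and the log2 values were quantile normalized. The probe set with the highest mean stood for its gene; genes below the 30th percentile were left out. limma 3.58.1 (R 4.3.3; lmFit, eBayes with a trend) fitted group alone, with Benjamini-Hochberg adjustment over all 8675 genes and a threshold of 0.05. Log2 differences refer to log2(value + 5), so changes of dim genes are understated. A second fit covered 14266 probe sets. Errors after ± are limma standard errors (n = 2 per group) and intervals are 95% limma intervals. The code was tested on simulated data. Members and lists were chosen with earlier results of these data known. Values were named by rule: Mycn, every member, and the 3 members of each related list (further pore proteins, Ran cycle cofactors, RNA export, nuclear lamina, SUMO pathway) with the largest moderated statistic. Seh1l, Sec13, Nxf1, Lmna, Lmnb1 and Lmnb2 were named after their values were seen. Cell type marker lists were summed on the normalized linear scale. Alternatives changed the offset, normalization, filter, probe set choice, variance trend, replicate block, _s_at and _x_at probe sets and arrays. With an array left out, the same probe sets and genes were kept.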

Additional observations from a re-analysis of the deposited data

How the results depend on the processing

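With 2 arrays per group, calls near the threshold depended on single arrays. Leaving out 1 array at a time gave 718 to 875 genes higher and 657 to 1024 lower over all genes, 11 to 14 nuclear transport genes higher and 0 lower, and a median of 0.345 to 0.569 over the 44. Under the other alternatives 15 to 19 were higher and 0 lower, and the median was 0.35 to 0.47. The share of all genes called higher moved too, from 8.28% with no filter to 18.4% with the 50th percentile filter. Offsets of 16 and 50 and no quantile normalization each left the member count at 18. Of 567 values of single member genes under the alternatives, 520 kept their direction and side of the threshold, 31 lost a call, 5 gained one and 11 turned direction, all 11 in genes not called. With the mean of probe sets Ipo8 stood at -0.0754, Kpna1 at -0.048, Kpna6 at -0.0416 and Tnpo1 at -0.32, and Kpna1 at -0.21 without probe sets ending in _s_at or _x_at, an alternative chosen after seeing the data. With 1 array left out, values ran from -0.18 to 0.40 for Tnpo1, -0.10 to 0.29 for Ipo8, -0.0283 to 0.25 for Xpo5, -0.0336 to 0.50 for Kpna2 and -0.0413 to 0.18 for Nup98. The cause of these changes was not tested.

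The replicate numbers are shared between groups, but differences between replicates 1 and 2 correlated at r = -0.0425 between groups over 8675 genes, and the labels give no shared source, so the samples share only a number. With the replicate number as a block, 17 nuclear transport genes were higher and 0 lower (median 0.42), beside 12.5% higher and 13.1% lower of all genes. In that fit Nup85 (limma adjusted p = 0.0781) and Ranbp3 (0.0504) were lost and Ipo7 was gained (0.0459). Sun2 of the lamina list was also lost (0.0641).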

Other observations

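Of 11 genes tested of the nuclear lamina and inner membrane, which surround the pores, 2 were higher and 1 lower, beside 14.7% higher and 15.7% lower of all genes. These counts are near the background. The genes had a median log2 difference, Sftpc-Nmyc minus wild type, of 0.16. Banf1, which ties chromatin to the envelope, read 1164 and 1540 in Sftpc-Nmyc lungs and 690 and 599 in wild type (1.03 ± 0.17; limma adjusted p = 0.00412). Tmpo, which encodes the LAP2 proteins of the inner membrane, read 752 and 743 against 435 and 377 (0.87 ± 0.14; limma adjusted p = 0.00344). Sun2, which links the envelope to the cytoskeleton, read 407 and 457 against 593 and 586 (-0.47 ± 0.14; limma adjusted p = 0.0352), a call lost whichever array was left out (0.0582 to 0.145) and without the variance trend (0.0764). The lamins Lmna and Lmnb1 did not pass, at -0.40 ± 0.19 for Lmna and 0.26 ± 0.25 for Lmnb1. A further lamin, Lmnb2, was too dim to test, at 78 and 87.9 in Sftpc-Nmyc lungs and 14.2 and 11.5 in wild type.

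In the SUMO pathway, a protein-modifying system that also acts at the pore, 2 of 10 genes were higher and none lower, beside 14.7% higher and 15.7% lower of all genes. With 10 genes, these counts are also near the background, and the median difference was 0.13. Sae1, a subunit of the activating enzyme, read 1141 and 1145 in Sftpc-Nmyc lungs and 758 and 549 in wild type (0.78 ± 0.17; limma adjusted p = 0.0113), a call lost without wild-type replicate 2 (0.062) and with the mean of its probe sets, at 0.51 (0.0561). Sumo3 read 820 and 890 against 604 and 580 (0.50 ± 0.13; limma adjusted p = 0.023), a call lost without transgenic replicate 2 (0.112), wild-type replicate 1 (0.0769) or wild-type replicate 2 (0.117), without the variance trend (0.0646) and with the mean of its probe sets (0.105). Pias3, a SUMO ligase, read 104 and 97.7 against 169 and 133 and did not pass (-0.53 ± 0.18; limma adjusted p = 0.0636), but was called lower with the mean of its probe sets, at -0.64 (0.0268).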
